A study of Mus musculus with 4 samples.

Results

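Glutamate, the transmitter that cerebellar granule cells release, acts on G-protein-coupled (metabotropic) receptors and on ion-channel (ionotropic) receptors, of which the kainate receptors are one class. Transcripts of 9 such genes were followed in tissue enriched for granule cells (GCE tissue), taken from the cerebellar vermis: 5 metabotropic receptor genes (*Grm2*, *Grm3*, *Grm4*, *Grm5* and *Grm7*) and 4 kainate receptor subunit genes (*Grik1*, *Grik2*, *Grik4* and *Grik5*). They were found by NCBI gene number among the 24532 genes of the abundance tables, and all 9 passed the minimum that 13652 genes passed, a mean TPM (a transcript level corrected for length and scaled to the same total in every library) of at least 1. Bulk RNA of 2 WT mice and 2 *Kdm3b*+/- mice was sequenced, 1 library per mouse, and the comparison asks which transcripts differ in mice with 1 trapped allele of *Kdm3b*, the gene of a demethylase of lysine 9 of histone H3.

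Per the methods of the study, its mice of both genotypes were adult males older than 7 weeks. No age or sex is given for the 4 sequenced mice one by one. The *Kdm3b*+/- mice carried the pGT0lxf gene-trap vector in the intron that follows exon 12 on 1 allele, from the single ES cell line YTC406, on a C57Bl/6N background later crossed to C57Bl/6J, and the WT mice were littermates without the trap. No other allele or treatment is named for either group. The tissue was dissected manually out of slices and is not a purified cell population: *Gabra6*, a subunit gene that marks granule cells, had a TPM between 984 and 1200, and *Mbp*, the myelin gene, between 10500 and 12600. Aligned sequence amounted to 4.92 and 5.74 gigabases for WT and to 5.69 and 6.69 gigabases for *Kdm3b*+/- libraries. *Kdm3b* itself stood at 9.10 and 11 TPM in WT and 8.30 and 7.90 TPM in *Kdm3b*+/- mice (log2 fold change -0.27, standard error 0.17, limma adjusted p = 0.424), and TPM counts reads on the exons before the trap too. A marker list of 8 Purkinje cell genes summed to a TPM of 1570 in WT mouse 1 against 675 in WT mouse 2 and 878 and 707 in the *Kdm3b*+/- mice, so WT mouse 1 stood apart.

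The metabotropic receptors fall into 3 groups. Group I (*Grm5* here) couples to Gq and phospholipase C and acts mostly postsynaptically. Group II (*Grm2* and *Grm3*) and group III (*Grm4* and *Grm7*) couple to Gi/o proteins, lower cyclic AMP and mostly restrain transmitter release. *Grm4* is known from the terminals of granule cell axons, *Grm2* from Golgi cells, the inhibitory interneurons of the granular layer, and *Grm3* from astrocytes as well as neurons. Kainate receptors are tetramers. GluK1 and GluK2, encoded by *Grik1* and *Grik2*, can form channels alone, whereas GluK4 and GluK5, encoded by *Grik4* and *Grik5*, bind kainate with high affinity and need a GluK1 to GluK3 partner.

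*Grm3* had the largest difference of the 9 genes. WT mice had 15.7 and 15.2 TPM, *Kdm3b*+/- mice 9.30 and 10.0 TPM. The mean was 37.3% lower (15.4 ± 0.333 against 9.66 ± 0.510, SD, n = 2 each). The gap between the groups was several times the spread within either. The log2 fold change, here always that of TPM + 1, was -0.62 (standard error 0.15, 95% confidence interval -0.97 to -0.28, unadjusted p = 0.00282). It did not pass the test, with an adjusted p of 0.136 from limma over all genes tested. The gene (NCBI gene 108069) lies on chromosome 5 from 9485236 to 9725352 on the reverse strand, as the tables give it, in coordinates that match GRCm38.

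Of the 9 genes, none was called by limma at an adjusted p under 0.05 with a fold change over 1.2, beside 0.461% of all genes tested. An unadjusted p under 0.05 was found for 1 of them, *Grm3*, beside 17.0% of all genes, or 11.5% when only lower genes are counted. The mean was lower in *Kdm3b*+/- mice for 8 genes and higher for 1, where 60.4% of all genes were lower. With median-ratio scaling *Grik5* changed sign and 7 genes were lower. The 60.4% holds for TPM without that scaling, under which the median log2 fold change of all genes was -0.0045. Both *Kdm3b*+/- values lay outside both WT values for 5 genes, all lower (*Grm2*, *Grm3*, *Grik1*, *Grik2* and *Grik4*). Such a gap between the groups was present for 51.3% of all genes, and for 32.0% with the *Kdm3b*+/- mice lower, so the share among the receptors was near the first of these and above the second, over 9 genes only. Over the 9 genes the log2 fold change had a median of -0.11, over all genes one of -0.07. With 2 mice against 2, no exact permutation test can give a two-sided p below 0.333, and limma reaches smaller values because it borrows the spread between mice from other genes.

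**Figure D1:**
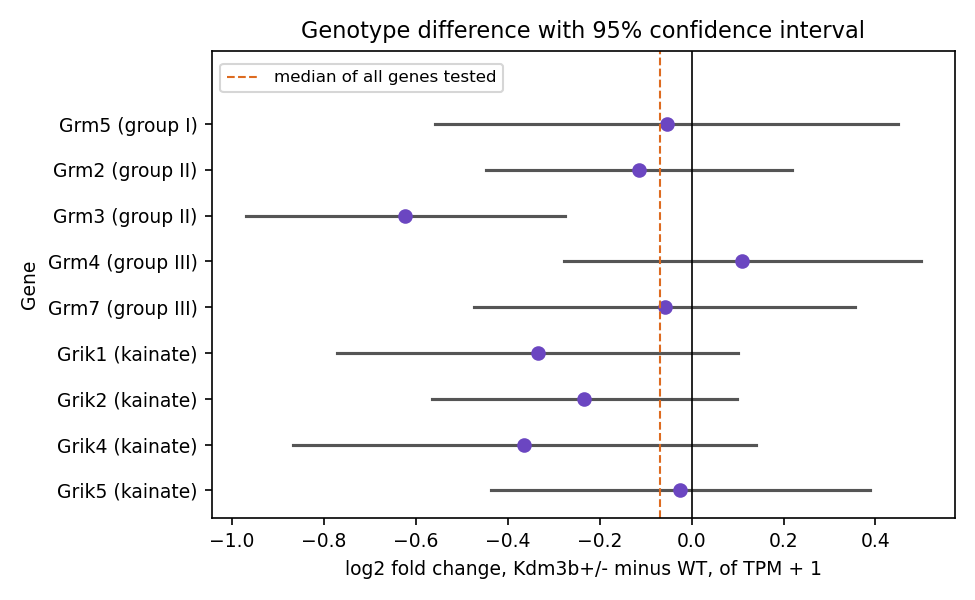
Log2 fold change (*Kdm3b*+/- minus WT, of TPM + 1) of each receptor gene on the horizontal axis, with its 95% confidence interval from limma as a bar, genes on the vertical axis. The interval of *Grm3*, from -0.97 to -0.28, lies below 0, and the other 8 intervals include both 0 and the median of all genes (dashed, -0.07).

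The levels spanned a wide range. *Grm4* was the most abundant in every mouse, with a mean TPM of 218, followed by *Grik2* (25.6), *Grm2* (21.9), *Grik5* (19.5), *Grm3* (12.5), *Grik1* (3.31), *Grm7* (3.22), *Grik4* (2.38) and *Grm5* (1.002). The ranges over the 4 mice of *Grik2* and *Grm2*, of *Grm2* and *Grik5*, of *Grik1* and *Grm7*, and of *Grm7* and *Grik4* overlapped. Within each mouse, however, the first 5 places and the last 2 by TPM were held by the same genes, and *Grik1* and *Grm7* alone changed places. By read depth per aligned gigabase, *Grik1* lay below *Grm7* in every mouse, and below *Grik4* in WT mouse 2 (0.928 against 1.23) and in *Kdm3b*+/- mouse 2 (0.878 against 1.16). *Grm4* made up between 80.2% and 86.9% of the summed TPM of the 5 metabotropic genes.

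**Figure D2:**
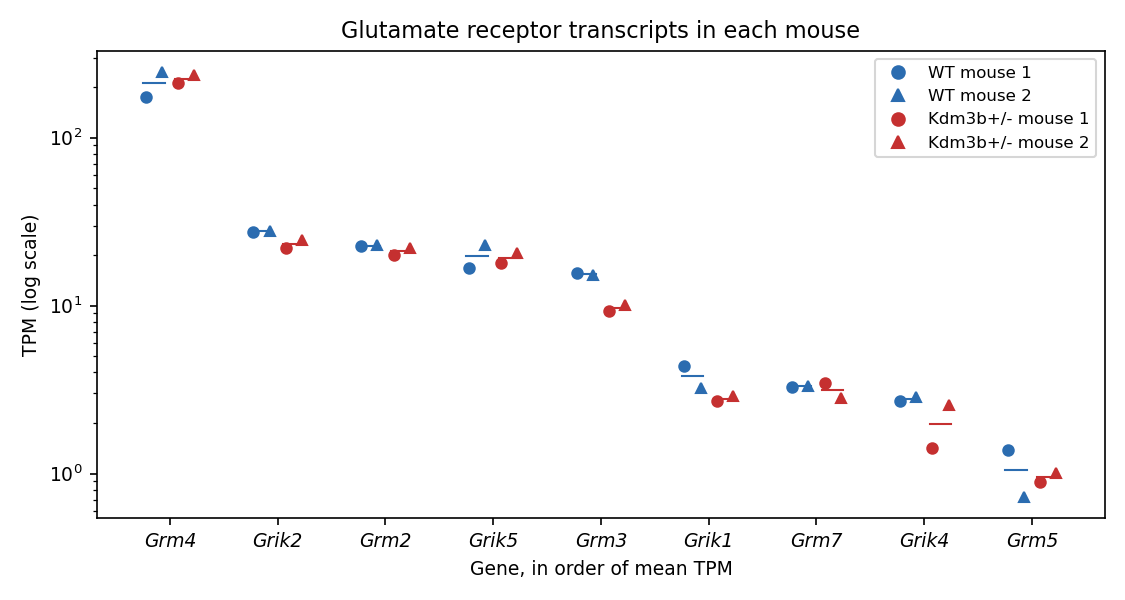
TPM on a log scale (vertical axis) for the 9 receptor genes in order of mean TPM (horizontal axis), 1 point per mouse (WT blue, *Kdm3b*+/- red) with a short line at each group mean. The *Kdm3b*+/- points of *Grm3*, 9.30 and 10.0, lie below its WT points, 15.7 and 15.2, while for *Grm4*, *Grik5*, *Grm7* and *Grm5* the colours interleave.

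*Grm2*, the other gene of group II, had close values in both genotypes. WT mice had 22.7 and 22.9 TPM, *Kdm3b*+/- mice 19.99 and 22.0 TPM. The groups did not overlap, but the nearest mice were less than 1 TPM apart, and the log2 fold change was -0.11 (95% confidence interval -0.45 to 0.22, limma adjusted p = 0.723). The ratio of the TPM of *Grm3* to that of *Grm2* was 0.689 and 0.664 (WT) and 0.465 and 0.454 (*Kdm3b*+/-). Within a library this ratio is free of the scaling to a common total, and it was alike in the 2 mice of each genotype. *Grm2* (NCBI gene 108068) spans 11.6 kb of chromosome 9, from 106644534 to 106656109, and *Grm3* spans 240 kb.

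The 250 bases upstream of the annotated start of these 2 genes are shown because the pair shares a receptor group and a signalling route. The other reason is the ratio of TPM above, whose difference between the genotypes was not tested. Neither gene was called. These bases are RefSeq sequence of GRCm38.p6, read 5′ to 3′ on the reverse strand. They lie at chr5:9725353-9725602 for *Grm3* and at chr9:106656110-106656359 for *Grm2*. A stretch of bases just after the start was not found in any GENCODE transcript of either gene, so the windows hold for the RefSeq starts. Capitals mark CG dinucleotides, the sites of DNA methylation.

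Grm3: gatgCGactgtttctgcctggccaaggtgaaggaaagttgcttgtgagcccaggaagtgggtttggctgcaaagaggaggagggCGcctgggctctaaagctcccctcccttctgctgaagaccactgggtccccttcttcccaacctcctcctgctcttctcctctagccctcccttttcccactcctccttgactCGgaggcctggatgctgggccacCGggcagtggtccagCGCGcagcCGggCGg

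Grm2: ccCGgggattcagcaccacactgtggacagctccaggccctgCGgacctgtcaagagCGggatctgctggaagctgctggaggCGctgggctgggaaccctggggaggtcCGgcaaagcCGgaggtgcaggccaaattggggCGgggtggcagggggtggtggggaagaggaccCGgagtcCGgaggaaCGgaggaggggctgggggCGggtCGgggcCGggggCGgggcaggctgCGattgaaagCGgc

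The *Grm3* window held 8 CG dinucleotides and the *Grm2* window 16, against a median of 6 over 32817 promoter windows of the same length. At least 8 were found in 43.0% of all windows and at least 16 in 25.4%. The G and C content was 62.4% and 71.2%, with a median of 52.4% over all windows. Windows were found for 6 of the 9 genes. Among these *Grik4* had the most CG dinucleotides (36, a number reached by 2.58% of windows) and *Grik2* had 20. For *Grik4*, as for *Grm2* and *Grm3*, the bases just after the start were in no GENCODE transcript, whereas for *Grik2* they were found. The letters TATAAA, searched on both strands, were in none of the windows of the 6 genes and in 12.4% of all windows. No chromatin mark was measured in these libraries.

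**Figure D3:**
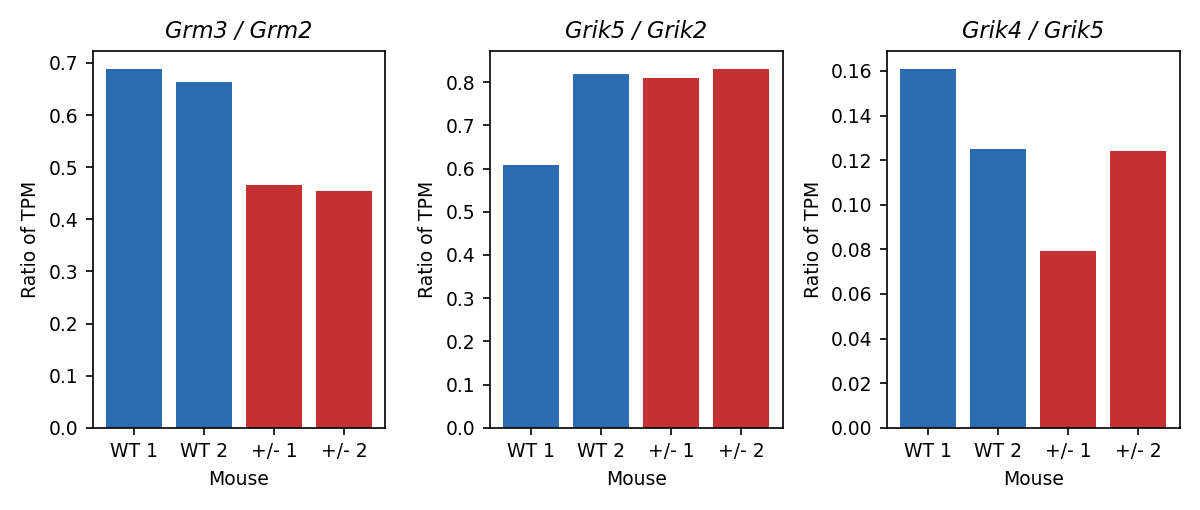
Ratios of TPM within each library (vertical axes, from 0) for 3 pairs of receptor genes, 1 bar per mouse (WT blue, *Kdm3b*+/- red). The ratio of *Grm3* to *Grm2* is 0.664 or more in the WT mice and 0.465 or less in the *Kdm3b*+/- mice, the ratio of *Grik5* to *Grik2* is low in WT mouse 1 alone (0.609 against 0.810 to 0.831), and that of *Grik4* to *Grik5* is lowest in *Kdm3b*+/- mouse 1 (0.0793).

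*Grm4*, the group III receptor of granule cell terminals, stood at 175 and 246 TPM in WT and 211 and 238 TPM in *Kdm3b*+/- mice. The WT mice thus enclosed both *Kdm3b*+/- mice. The log2 fold change of 0.11 (95% confidence interval -0.28 to 0.50, limma adjusted p = 0.773) was 0.36 without WT mouse 2 and -0.14 without WT mouse 1. *Grm4* (NCBI gene 268934) is on chromosome 17, from 27422388 to 27503533, where GENCODE lists 5 protein-coding transcripts of 2976 to 4607 bases. Its level depends on the measure, since its FPKM was 2.97 times its mean read depth per aligned gigabase in each of the 4 libraries. For 81.5% of all genes tested this ratio was within 5% of 1, and for 3.74% it was as high as for *Grm4*. By TPM *Grm4* exceeded *Grm2* between 7.69-fold and 10.8-fold, and by read depth between 2.59-fold and 3.64-fold. It ranked first of the 9 genes by either measure, and because the ratio was the same in every library it leaves the comparison of genotypes as it is.

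*Grm7*, a group III receptor of the presynaptic active zone with a low affinity for glutamate, stood at 3.29 and 3.31 TPM in WT and 3.48 and 2.80 TPM in *Kdm3b*+/- mice. The *Kdm3b*+/- mice lay on either side of the WT pair (log2 fold change -0.06, 95% confidence interval -0.47 to 0.36). It is the longest of the 9 genes, with a span of 922 kb on chromosome 6, from 110645512 to 111567230. *Grm5*, the group I receptor on chromosome 7 (87584168 to 88135063), was the lowest, at 1.37 and 0.729 TPM in WT and 0.896 and 1.01 TPM in *Kdm3b*+/- mice. Its mean of 1.002 was just above the minimum, and only 1 of the genes tested had a lower mean. The mean read depth over its exons was between 1.80 and 3.09, and the log2 fold change of -0.05 had a confidence interval from -0.56 to 0.45.

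Among the kainate subunits, *Grik2*, which encodes the channel-forming GluK2, was the most abundant. WT mice had 27.5 and 27.9 TPM, *Kdm3b*+/- mice 22.1 and 24.7 TPM. Both *Kdm3b*+/- mice were below both WT mice, by 15.4% on average. The log2 fold change was -0.23 (standard error 0.15, 95% confidence interval -0.57 to 0.10, limma adjusted p = 0.438). It ran from -0.31 to -0.16 with each mouse left out in turn. *Grik2* (NCBI gene 14806) spans 689 kb of chromosome 10, from 49099463 to 49788754.

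*Grik5*, which encodes the GluK5 partner subunit, stood at 16.7 and 22.8 TPM in WT and 17.9 and 20.6 TPM in *Kdm3b*+/- mice. The WT mice enclosed the *Kdm3b*+/- mice, as for *Grm4*, with WT mouse 1 the lowest for both genes. The log2 fold change of -0.03 (95% confidence interval -0.44 to 0.39, limma adjusted p = 0.958) was positive under median-ratio scaling (0.04) and with FPKM (0.03). Its TPM relative to that of *Grik2* was 0.609 in WT mouse 1 and between 0.810 and 0.831 in the other mice. *Grik5* (NCBI gene 14809) lies on chromosome 7 from 25009851 to 25072369.

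The scarce kainate subunits had wider ranges over all mice, which include the difference between the genotypes. The highest TPM was 1.63 times the lowest for *Grik1* and 2.01 times for *Grik4*, against 1.26 for *Grik2* and 1.37 for *Grik5*. *Grik1*, which encodes GluK1, stood at 4.39 and 3.25 TPM in WT and 2.69 and 2.90 TPM in *Kdm3b*+/- mice. The groups did not overlap, and the highest value was again that of WT mouse 1, without which the log2 fold change went from -0.34 to -0.16. Its confidence interval was -0.77 to 0.10 and its limma adjusted p 0.399. *Grik1* (NCBI gene 14805) lies on chromosome 16, from 87895897 to 88290265, and its FPKM was 1.5 to 1.51 times its read depth per gigabase.

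*Grik4*, which encodes the GluK4 partner subunit, stood at 2.69 and 2.85 TPM in WT and 1.42 and 2.55 TPM in *Kdm3b*+/- mice. The difference rested on *Kdm3b*+/- mouse 1: the log2 fold change was -0.36 (95% confidence interval -0.87 to 0.14, limma adjusted p = 0.425), and -0.09 without that mouse. At a mean read depth of 3.76 to 7.79 over its exons *Grik4* was among the thinly covered members. The gene (NCBI gene 110637) lies on chromosome 9 from 42520412 to 42944371, on the chromosome that also carries *Grm2*. The summed TPM of the 4 kainate genes was 51.2 and 56.8 (WT) and 44.1 and 50.7 (*Kdm3b*+/-).

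Among other genes of both families, *Grm8*, a group III receptor, was between 2.86 and 3.06 TPM, *Grik3*, the gene of the GluK3 subunit, between 0.763 and 1.23 TPM, and *Grm6*, the receptor of retinal bipolar cells, was listed at 0 in every library.

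Marker lists of cell types that can carry these receptors were set beside *Grm3*, and the part of these cell types in its values was not tested. In bulk tissue fewer cells of a type and less RNA per cell cannot be told apart. Of 9 astrocyte and Bergmann glia markers, 7 had a lower and 2 a higher mean in *Kdm3b*+/- mice, and the list's summed TPM was 1280 and 1190 (WT) and 1120 and 1330 (*Kdm3b*+/-). Within that list *Aldh1l1*, a folate enzyme used as an astrocyte marker, stood at 49.7 and 50.3 TPM in WT against 27.0 and 35.0 TPM in *Kdm3b*+/- mice (log2 fold change -0.69, limma adjusted p = 0.127), whereas *Aqp4*, the astrocyte water channel, rose from 59.2 and 82.3 to 150 and 152 (log2 fold change 1.10, limma adjusted p = 0.0329). Markers of Golgi cells and other inhibitory neurons of the granular layer summed to 318 and 282 in the WT mice and to 195 and 197 in the *Kdm3b*+/- mice, with all 6 tested genes lower. *Gad1*, the enzyme of GABA synthesis, stood at 140 and 104 TPM in WT against 81.6 and 78.5 TPM in *Kdm3b*+/- mice (limma adjusted p = 0.168). All 8 Purkinje cell markers had a lower mean, none was called, and their sums in the *Kdm3b*+/- mice lay between those of the WT mice. No marker of these 3 lists was at 0 in all libraries. The 10 granule cell markers had a median log2 fold change of 0.01 and summed to between 3550 and 4280, with none called. The medians were -0.30 for 5 tested markers of molecular-layer interneurons, -0.33 for 5 of unipolar brush cells, -0.05 for 7 of oligodendrocytes, -0.09 for 4 of their precursors, 0.04 for 6 of microglia and -0.33 for 4 of endothelium. *Mobp*, a myelin gene, was the only one called in these 6 lists, and it fell from 925 and 893 TPM to 471 and 482 TPM (log2 fold change -0.93, limma adjusted p = 0.0133).

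The genes that act with these receptors were examined as 4 lists with 62 genes, of which 58 passed the TPM minimum. None of the 58 was called by limma, and an unadjusted p under 0.05 was found for 12, which is 20.7% beside the 17.0% of all genes. Of these 12, 11 were lower and 1 was higher. Over all genes, 1571 of the 2318 with such a p were lower. The medians of the log2 fold change were -0.01 for scaffolds and auxiliary proteins, -0.23 for Gq signalling, -0.13 for Gi/o signalling and -0.15 for glutamate release and uptake, all beside -0.07 for all genes.

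**Figure D4:**
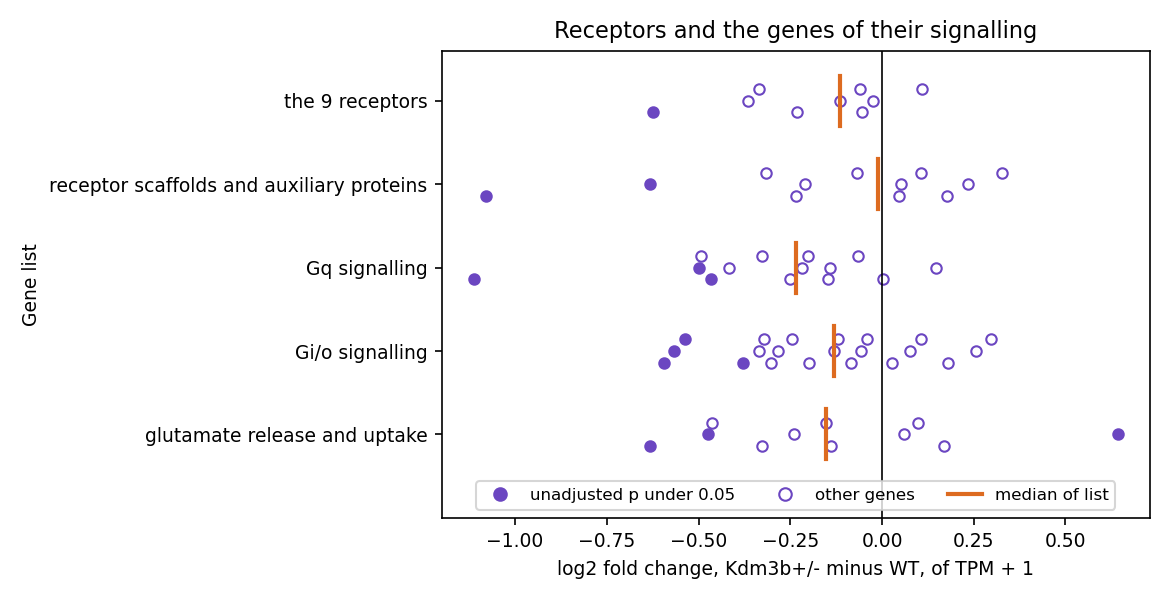
Log2 fold change (*Kdm3b*+/- minus WT, of TPM + 1, horizontal axis) of each tested gene of the receptors and of 4 lists of genes that act with them (vertical axis), 1 circle per gene, filled where the unadjusted p was under 0.05, with the median of each list as an orange line. Most filled circles lie to the left of 0, *Homer3* (-1.08) among them, and the one filled circle on the right is *Slc38a3* (0.64).

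The Homer proteins link group I receptors to calcium stores. *Homer3*, the form known from Purkinje cells, stood at 35.1 and 19.1 TPM in WT and 12.8 and 10.8 TPM in *Kdm3b*+/- mice (unadjusted p = 0.00202, limma adjusted p = 0.125). It was highest in WT mouse 1, in which the Purkinje cell markers were high, and the part of that mouse in the difference was not tested. *Homer1* (10.1 and 14.9 against 12.6 and 10.8) and *Homer2* (9.63 and 11.4 against 11.8 and 9.99) overlapped between the genotypes. *Ncdn*, which encodes the receptor-binding protein neurochondrin, stood at 341 and 467 TPM in WT against 222 and 298 TPM in *Kdm3b*+/- mice (log2 fold change -0.63, limma adjusted p = 0.175). *Neto2*, an auxiliary subunit of kainate receptors, had 26.3 and 30.3 against 29.5 and 29.2, and *Neto1* was below the minimum.

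On the Gq route, 12 of 14 tested genes had a lower mean and 3 of them an unadjusted p under 0.05. Of all genes, 60.4% were lower, and 11.5% were lower with such a p. *Rgs8*, which speeds the turn-off of G proteins, stood at 63.6 and 67.4 TPM in WT and 44.9 and 47.2 TPM in *Kdm3b*+/- mice. The groups did not overlap, and the log2 fold change was -0.50 (limma adjusted p = 0.158). *Rgs8* also counts among the Purkinje cell markers. The G protein genes of this route were nearly level, with log2 fold changes of 0.15 for *Gnaq* and 0.00 for *Gna11*.

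On the Gi/o route, which *Grm2*, *Grm3*, *Grm4* and *Grm7* use, 15 of 21 tested genes had a lower mean, and 4 had an unadjusted p under 0.05. Over all genes the shares were 60.4% and 17.0%. None of the 21 was called by limma. *Adcy9*, which encodes an adenylyl cyclase, an enzyme that makes cyclic AMP, stood at 11.8 and 11.5 TPM in WT and 7.37 and 7.36 TPM in *Kdm3b*+/- mice, with a log2 fold change of -0.60 (limma adjusted p = 0.152). *Adcy5* (-0.54) and *Adcy3* (-0.57), also cyclase genes, had limma adjusted p-values of 0.231 and 0.258. *Adcy1*, the most abundant cyclase in the list, overlapped between the genotypes (127 and 151 against 121 and 141). *Gnaz*, a Gi-class subunit gene, had a log2 fold change of -0.38, and *Gnao1* one of -0.06.

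Among genes of glutamate release and uptake, *Slc38a3*, a glutamine transporter of astrocytes, stood at 35.1 and 51.3 TPM in WT and 56.5 and 79.0 TPM in *Kdm3b*+/- mice (log2 fold change 0.64, limma adjusted p = 0.212). The glutamate transporter genes *Slc1a3* of Bergmann glia and *Slc1a6* of Purkinje cells had log2 fold changes of -0.47 and -0.63 (limma adjusted p-values of 0.216 and 0.212). Both are also in the marker lists above. *Slc1a2*, the main astrocyte transporter elsewhere in the brain, had 36.2 and 31.3 against 34.9 and 37.4.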

How the data were processed

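Reads were quality-trimmed by the authors and mapped with STAR. Gene abundance came from StringTie. Tool versions, genome build and annotation are not given in the sources used here. The authors deposited a table per library with coverage (a signal, the mean read depth over the exons), FPKM (scaled by the authors to length and mapped fragments) and TPM (scaled by the authors to a fixed total). TPM carries no depth, so aligned bases were read from the most frequent ratio of coverage to FPKM. Rows sharing a gene number were summed. Of 24532 gene numbers, 24462 had a symbol in a RefSeq table of GRCm38, and 99.6% lay on its chromosome.

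Genes whose TPM averaged 1 or more were compared as log2(TPM + 1) with limma version 3.58.1 in R version 4.3.3. The model held genotype alone, the variance prior followed a trend (eBayes), and Benjamini-Hochberg adjustment covered all 13652 genes. The count test of the study was not run, because TPM values are not counts. Calls needed both an adjusted p under 0.05 and a 1.2-fold difference. Of all genes, 16 were called higher and 47 lower, and 23 and 38 with median-ratio scaling. The 9 receptor genes and others of both families were named, with any called gene and the 3 of smallest p in each pathway list, the Homer genes and *Kdm3b*. *Neto1*, *Neto2*, *Gnaq*, *Gna11*, *Gnaz*, *Gnao1*, *Adcy1* and *Slc1a2*, which their roles make of interest, and the single markers given were named outside this rule, with values seen. Alternatives were another pseudocount, FPKM, coverage, other filters and scaling, other variance settings, a replicate block and each mouse left out. Some genes that this rule names are counted in their lists and not reported here. The members and lists were chosen with earlier results of these data known. The scripts were tested on simulated data, and figures were made with Matplotlib version 3.10.9.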

Additional observations from a re-analysis of the deposited data

How the results depend on the processing

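No receptor gene was called under 9 of the 10 alternatives that keep all mice, nor with any mouse left out (0 in each case). With the replicate block 1 was called, *Grm3*. The numbers mark no shared litter or day in the labels, and deviations of same-numbered mice correlated at 0.121 across genes, over 2 pairs only. *Grm3* stayed lower throughout, with a log2 fold change of -0.67 to -0.52 and an adjusted p of 0.0446 to 0.307, and of -0.67 to -0.57 and 0.104 to 0.582 with each mouse left out. *Grik5* turned positive with FPKM (0.0343), with median-ratio scaling (0.0445) and with depth-scaled coverage, an alternative chosen after seeing the data (0.0344). With each mouse left out it ran from -0.24 to 0.19, *Grm4* from -0.14 to 0.36, *Grm5* from -0.28 to 0.18 and *Grm7* from -0.18 to 0.0601. The other receptor genes kept their direction under the alternatives that held them, and at a mean TPM of at least 5 only 5 of the 9 genes were left.

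Over all genes, 63 were called. The count was 38 with FPKM, 14 with depth-scaled coverage, 37 without a variance trend, 1 without the filter on low TPM and 600 with the replicate block, and it was 21 without WT mouse 1, 28 without WT mouse 2, 121 without *Kdm3b*+/- mouse 1 and 188 without *Kdm3b*+/- mouse 2, where the lone mouse of a group is assumed to vary like the others. The cause of these shifts in the count was not tested.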
